A study of Mus musculus with 8 samples.

Results

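The Iroquois genes Irx1 to Irx6 encode a small family of homeobox transcription factors, and they were read here in 2 regions of the mouse embryonic head. Members were the rows of the deposited table whose gene symbol is Irx1, Irx2, Irx3, Irx4, Irx5 or Irx6, which gave 6 of 23420 genes. The samples were 4 libraries of supraorbital mesenchyme (SOM), the tissue above the eye, and 4 of early migrating mesenchyme (EMM). All came from wild type C57BL/6 embryos at E12.5, each library from 1 pool of 4 to 5 embryos, so that single embryos cannot be told apart within a pool. Dissected head tissue (apical and basolateral areas) was loosened with dispase, a protease, so that ectoderm and brain could be taken off the mesenchyme. The study set the regions side by side for gene expression, and the labels name no treatment.

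Iroquois proteins belong to the TALE class of homeodomain proteins, in which a short loop lengthens the DNA-binding domain, and they act mostly as repressors or context-dependent regulators. The mouse genes lie in clusters, IrxA with Irx1, Irx2 and Irx4 and IrxB with Irx3, Irx5 and Irx6, that arose by duplication and share long-range enhancers. They pattern the neural tube, heart, limb and eye, and mutations of human IRX5 cause Hamamy syndrome, a disorder with widely spaced eyes and changed facial bones.

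All values are normalized counts, that is reads of a gene divided by a size factor per library, unless another scale is named. The libraries held 12703844 to 22440232 reads in EMM and 16765416 to 33694331 in SOM. Alpl and Sp7, genes of bone-forming cells, had log2 differences (SOM minus EMM) of 3.24 and 2.80. Those of the homeobox genes Lmx1b and Msx2 were -3.14 and -2.05. These genes were chosen for their known directions in this series, so they are no independent check of the labels. All 7 mesenchyme markers examined passed the filter on low values, with Twist1, Prrx1 and Vim called higher in SOM and Pdgfra, Pdgfrb, Col1a1 and Col3a1 in EMM. Their summed level was 623340 to 706840 in EMM and 280720 to 322640 in SOM, carried by Col1a1 (366350 against 107730) and Col3a1 (221970 against 97946). In these bulk samples, fewer cells of a type and less RNA per cell cannot be told apart. P-values measure the spread between pools. The labels do not say whether EMM and SOM pools came from the same embryos, so the main tests took the pools as unpaired.

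The coding sequences of the 6 genes are nearly the same in the part that encodes the DNA-binding homeodomain, which matters for how reads are assigned. The most similar stretch of 90 bases, found by comparing the longest coding transcripts of GENCODE M21 on GRCm38, is shown for each member, with bases equal in all 6 in capitals.

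Irx1: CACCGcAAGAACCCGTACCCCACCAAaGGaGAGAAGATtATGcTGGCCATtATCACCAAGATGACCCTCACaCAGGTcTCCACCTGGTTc
Irx2: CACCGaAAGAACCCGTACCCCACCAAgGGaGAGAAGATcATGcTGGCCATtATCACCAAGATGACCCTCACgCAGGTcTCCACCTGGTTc
Irx3: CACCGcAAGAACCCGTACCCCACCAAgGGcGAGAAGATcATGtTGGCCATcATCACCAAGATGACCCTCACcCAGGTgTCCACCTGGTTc
Irx4: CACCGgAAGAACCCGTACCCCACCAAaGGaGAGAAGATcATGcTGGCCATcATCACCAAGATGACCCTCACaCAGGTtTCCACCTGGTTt
Irx5: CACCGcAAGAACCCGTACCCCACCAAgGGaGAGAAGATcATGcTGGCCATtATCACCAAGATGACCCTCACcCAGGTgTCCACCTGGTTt
Irx6: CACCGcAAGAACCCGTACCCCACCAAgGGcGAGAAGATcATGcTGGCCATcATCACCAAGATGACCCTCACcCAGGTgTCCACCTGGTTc

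Of the 90 bases, 81 were equal in all 6 genes and 9 differed, 8 of them at the last base of a codon. The 30 codons translate to 1 and the same amino acid string in every member. The longest run of identical bases shared by 2 members was 23 to 88 bases over the 15 pairs, and the run of 88 bases joins Irx3 and Irx6:

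Irx3 and Irx6: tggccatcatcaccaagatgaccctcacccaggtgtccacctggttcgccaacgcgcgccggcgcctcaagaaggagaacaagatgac

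Short reads that fall inside this run cannot be told apart between Irx3 and Irx6. In EMM, Irx6 had 2 reads beside 5057 of Irx3, or 0.0395%, and in SOM it had 370 beside 16862, or 2.19%. The run is a small part of either gene, with coding lengths of 1317 bases in Irx6 and 1566 bases in Irx3.

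**Figure D1:**
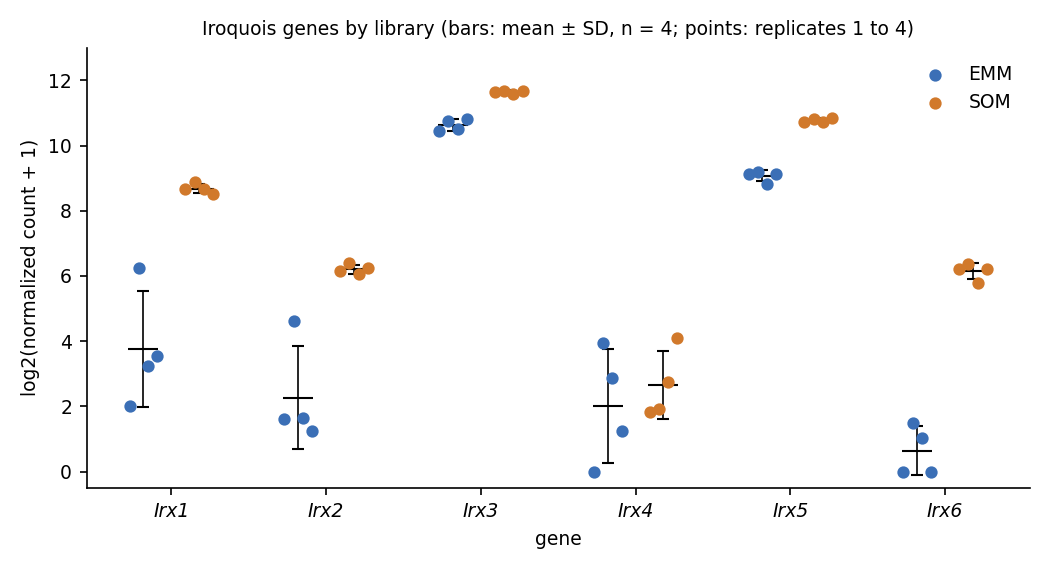
Each point is 1 library and shows log2(normalized count + 1) of an Iroquois gene, with black bars for the mean ± SD of 4 libraries in EMM (blue) and SOM (orange). Irx1, Irx2, Irx3, Irx5 and Irx6 lie higher in all 4 SOM libraries than in any EMM library, EMM replicate 2 stands above the other EMM libraries for Irx1 and Irx2, and Irx4 overlaps.

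Of the 6 genes, 5 passed the filter of at least 10 normalized counts in at least 4 libraries, and all 5 were higher in SOM (limma on log2(normalized count + 1), Benjamini-Hochberg adjusted p below 0.05 over 14249 genes). Over all tested genes, 36.0% were called higher in SOM and 36.1% higher in EMM, 72.1% in all. The same 5 genes had no overlap between the groups, as had 66.1% of all tested genes, 32.9% with SOM higher. Irx3 and Irx5 reached 10 in all 8 libraries. Irx6 reached it in the 4 SOM libraries alone, Irx2 in these and 1 EMM library, and Irx1 in these and 2 EMM libraries, so that the filter kept them because of their SOM level and their count supports no direction of the family. Irx3 and Irx5, which the filter kept by their level in both regions, were at least 2-fold higher in SOM, as were 5.19% of tested genes. Irx1, Irx2 and Irx6 were past 8-fold, as were 0.737%. Their way through the filter favours such a size, so it was not read as a trait of the family.

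Within the IrxB cluster, Irx3 had the highest level of the family in both regions. Irx3, known for neural tube patterning and for a role with Irx5 in limb and heart, stood at 1401, 1717, 1452 and 1814 in EMM replicates 1 to 4. In SOM replicates 1 to 4 it stood at 3227, 3286, 3036 and 3236. The lowest SOM library was thus above the highest EMM library. The mean was 3196 ± 110 (SD, n = 4) in SOM against 1596 ± 201 in EMM, 2.003-fold higher, with a log2 difference of 1.01 (SE 0.07, limma adjusted p = 2.05e-08). Its antisense gene Irx3os shares 124 exonic bases with it, and Irx3os was not analysed here.

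Irx5, the gene of Hamamy syndrome in humans, stood at 561, 580, 453 and 564 in EMM and at 1697, 1816, 1687 and 1828 in SOM. The groups were far apart, and EMM replicate 3 was the lowest library. The mean was 1757 ± 75.5 in SOM against 540 ± 58.5 in EMM, a ratio of 3.26, and the log2 difference was 1.71 (SE 0.07, limma adjusted p = 7.31e-12). Irx3 and Irx5 varied little between SOM pools, with coefficients of variation of 3.44% and 4.30%, beside a median of 7.69% over all tested genes. In EMM these were 12.6% and 10.8%, beside a median of 6.87%.

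Irx6, a gene best known from retinal bipolar interneurons, was close to undetected in EMM and present in SOM. It had 0, 1.81, 1.05 and 0 normalized counts in EMM and 73.0, 81.9, 54.3 and 73.5 in SOM. The EMM values of replicates 2 and 3 come from 1 read each. With 2 reads against 370, the ratio of SOM to EMM after scaling for depth was 113 (95% counting interval 31.1 to 937), where the exact interval covers counting error only. The log2 difference was 5.52 (SE 0.37, limma adjusted p = 1.56e-09). Irx6 passed the filter through SOM alone, which favours a large difference. With no filter on low values, limma gave the same 5.52 (SE 0.36, adjusted p = 1.35e-08). The log2 difference ranged from 3.73 with a pseudocount of 5 to 6.81 with DESeq2. The antisense gene Gm45505 shares 152 exonic bases with Irx6 and was not analysed here.

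Irx1 and Irx2 of the IrxA cluster were low in EMM except in 1 library. Irx1, active in embryonic limb, lung and brain, had 3.07, 74.1, 8.36 and 10.8 normalized counts in EMM and 408, 467, 405 and 363 in SOM. Irx2, which is often found together with Irx1, had 2.04, 23.5, 2.09 and 1.35 in EMM and 70.5, 82.6, 65.1 and 74.1 in SOM. EMM replicate 2 was thus 6.88-fold above the next EMM library for Irx1 and 11.2-fold above it for Irx2, but still below every SOM library. For Irx1 the mean was 411 ± 42.5 in SOM against 24.1 ± 33.5 in EMM, with a log2 difference of 4.92 (SE 0.87, limma adjusted p = 0.00218). For Irx2 it was 73.1 ± 7.33 against 7.24 ± 10.8, with a log2 difference of 3.94 (SE 0.70, limma adjusted p = 0.00111). Both genes passed the filter by their SOM level, which favours a large difference. With no filter on low values, limma gave the same differences (adjusted p = 0.00240 for Irx1 and 0.000396 for Irx2).

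Leaving out EMM replicate 2 enlarged both differences. The ratio of means went from 17.1 to 55.5 for Irx1 and from 10.1 to 40.0 for Irx2. The EMM mean of Irx1 was then 7.40 ± 3.94 and that of Irx2 1.83 ± 0.417 (n = 3). The log2 differences without that library were 5.74 and 4.72, and without EMM replicates 2 and 3 they were 5.89 and 4.79.

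**Figure D2:**
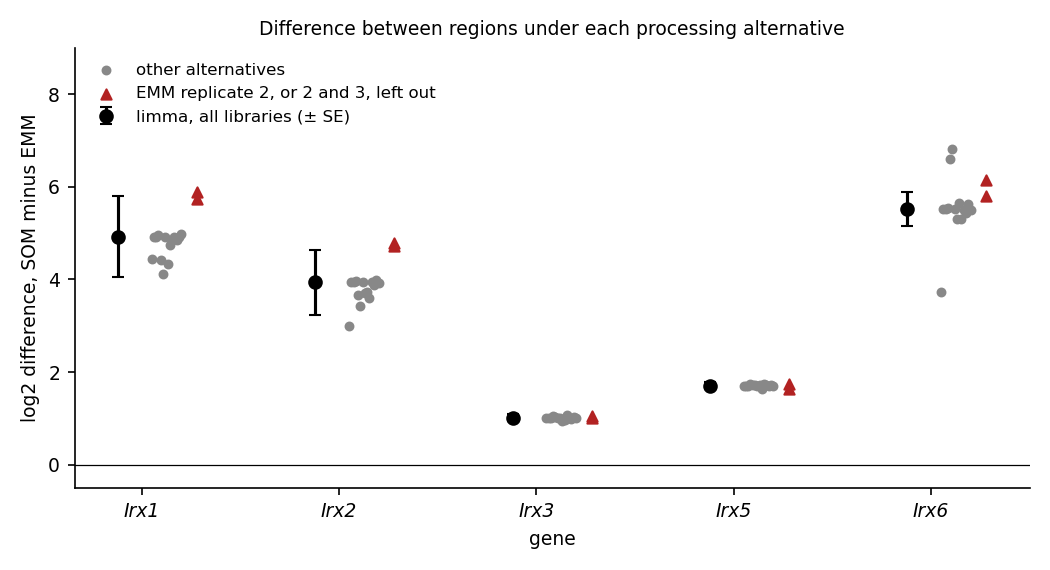
The log2 difference between SOM and EMM is shown for the 5 tested genes, with the fit to all libraries in black (± SE), other processing alternatives in grey, and fits without EMM replicate 2 or without EMM replicates 2 and 3 as red triangles. Irx3 and Irx5 keep within 0.95 to 1.07 and 1.63 to 1.74, while Irx1, Irx2 and Irx6 spread more and lie above 0 in every fit.

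Irx4, a gene of the heart ventricle, was near the limit of detection in both regions and was not tested. It had 0, 14.5, 6.27 and 1.35 normalized counts in EMM and 2.52, 2.80, 5.74 and 16.03 in SOM. The groups overlapped, with EMM replicate 2 and SOM replicate 4 the highest libraries. The 4 EMM libraries together held 15 reads of it and the 4 SOM libraries 39. Scaled for depth, SOM over EMM was 1.59 with a 95% counting interval of 0.856 to 3.10, so that no difference was detectable at this depth. Without EMM replicate 2 it was 2.82, with an interval of 1.25 to 7.48 that covers counting error only and not the spread between pools. With no filter on low values, limma gave a log2 difference of 0.64 (SE 0.81, adjusted p = 0.541).

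The library with the most Irx4 in each region was also the one with the most RNA of basal surface ectoderm. Krt5, a keratin of basal epidermis, stood at 3.07, 192, 55.4 and 8.08 in EMM and at 55.4, 46.2, 43.4 and 140 in SOM, and the EMM libraries fell in the same order by Krt5 as by Irx4. In SOM the highest library was the same for both genes and the order of the rest was not. Of 13 surface ectoderm markers, 8 were highest in EMM replicate 2 among EMM libraries. Of the 9 tested, 0 were called higher in SOM and 2 in EMM, beside 36.0% and 36.1% of all tested genes. The median log2 difference of the list was 0.99. The 2 called were the epithelial genes Krt8 (333 against 43.9) and Cdh1 (331 against 54.4). These 2 genes carried the summed level in EMM, which was 772 to 1099. In SOM the sum was 283 to 520 and came more from other markers, with Krt5 having the highest mean there (71.1). No marker was at 0 in every library. The mean of the list on the log2 scale was 5.29 in EMM replicate 2, 3.02 to 4.51 in the other EMM libraries and 3.99 to 4.79 in SOM. SOM replicate 4 had the highest ectoderm sum and the lowest Irx1 of its group. The ratio of Irx1 to Krt5 was 1.0, 0.387, 0.151 and 1.33 in EMM replicates 1 to 4 and 2.60 to 10.1 in SOM. In EMM it rests on 3, 41, 8 and 8 reads of Irx1, and Krt5 was also low in replicates 1 and 4. The EMM ratios are thus too uncertain to compare replicate 2 with the others. In EMM replicate 2, 3 of 14249 tested genes stood at least 5-fold above every other EMM library, Irx1, Irx2 and Shisa3, a limit chosen after the values of Irx1 and Irx2 were seen. A gene raised in this library alone could not pass the filter, so the count leaves such genes out. The part of ectoderm in these levels was not tested.

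**Figure D3:**
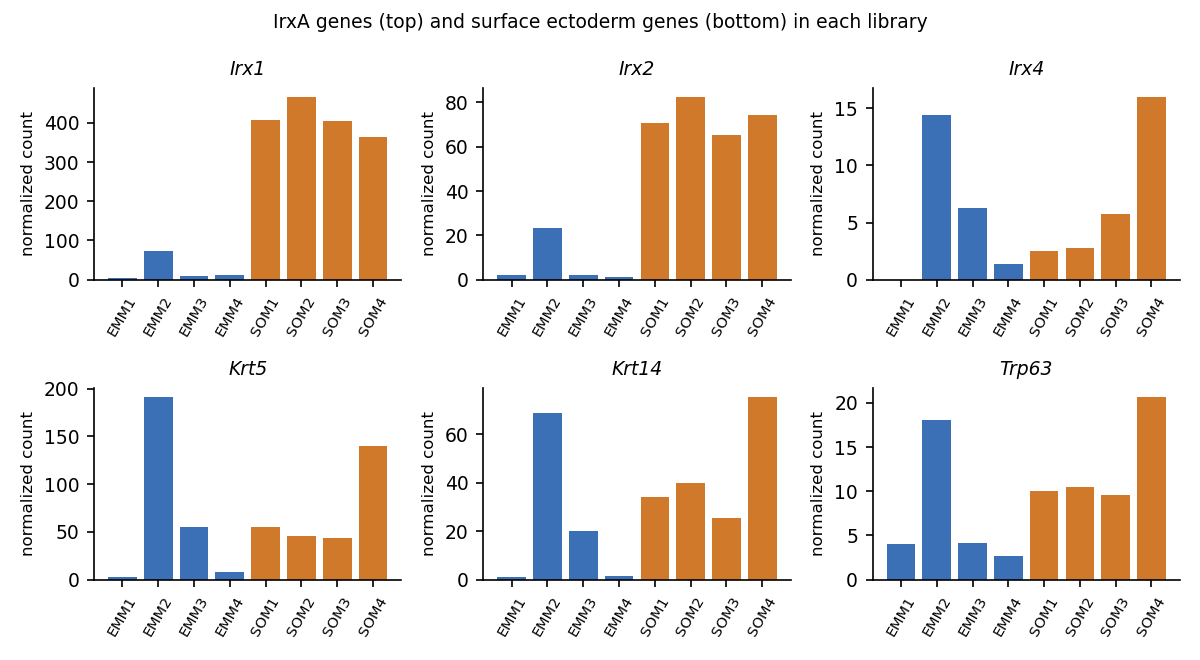
Bars show normalized counts of Irx1, Irx2 and Irx4 (top) and of the surface ectoderm genes Krt5, Krt14 and Trp63 (bottom, picked after their values were seen) in each EMM (blue) and SOM (orange) library, each panel on its own axis. EMM replicate 2 is the highest EMM library in all 6 panels, at 74.1 for Irx1 and 192 for Krt5, and SOM replicate 4 is the highest SOM library for Irx4 and the 3 ectoderm genes but the lowest for Irx1.

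Markers of other cell types were also unequal between the regions. All 5 markers of neural crest glia were called higher in SOM, beside 36.0% of all tested genes, where their summed level was 906 to 1025 against 83.5 to 111 in EMM, and Foxd3 was at 0 in all EMM libraries. The sum of 9 neuron markers was 2859 to 3095 in SOM against 1235 to 1648 in EMM, most of it in SOM from Tubb3 (1502) and Stmn2 (1057). On the log2 scale the mean of this list was 5.14 to 5.41 in SOM and 5.36 to 6.21 in EMM. Of the 7 tested, 3 were higher in SOM and 3 in EMM, beside 36.0% and 36.1% of all tested genes. The sum of 9 brain progenitor markers was 878 to 1128 in SOM against 246 to 521 in EMM, most of it in SOM from Emx2, which stood at 880 ± 111 there. Of the 4 brain markers tested, 1 was called toward SOM, 2 toward EMM and 1 not, beside the same shares of all tested genes. Among the others below the filter or not called, Pax6 and Neurog2 had lower means in SOM (1.66 against 12.4 and 0.835 against 13.5), Hes5 a higher one (14.3 against 8.46), and Sox2 stood at 18.8 against 19.5. Of 8 eye markers, 4 were tested, 2 higher in each region, beside 36.0% of all tested genes for SOM and 36.1% for EMM. Macrophage markers summed to 4829 to 5860 in EMM and 1185 to 1378 in SOM, with all 4 called higher in EMM, beside 36.1% of all tested genes. Endothelial markers summed to 12641 to 16472 in EMM and 9382 to 11090 in SOM. Of these 5, 4 were called higher in EMM and Pecam1 in SOM, beside 36.1% and 36.0% of all tested genes. The part of these cells in the Iroquois levels was not tested.

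Per kb of exon, which allows levels of different genes to be compared, Irx3 and Irx5 held most of the family output in both regions. In SOM the order was Irx3 at 1157 ± 39.8 normalized counts per kb, Irx5 at 562 ± 24.2, Irx1 at 157 ± 16.2, Irx2 at 22.3 ± 2.23, Irx6 at 20.97 ± 3.46 and Irx4 at 2.60 ± 2.43. Irx2 and Irx6 overlapped between libraries, and the other neighbours in this order did not. In EMM the order was Irx3 at 578 ± 72.6 per kb, Irx5 at 173 ± 18.7, Irx1 at 9.19 ± 12.8, Irx2 at 2.21 ± 3.30, Irx4 at 2.12 ± 2.51 and Irx6 at 0.212 ± 0.261, and the lowest 4 overlapped with their neighbours. The make-up of the family also differed. Irx3 held 59.5% to 61.1% of the summed level per kb in SOM and 73.2% to 78.0% in EMM, and Irx1 held 7.13% to 8.91% in SOM and 0.170% to 3.33% in EMM. The summed level was 1831 to 1999 per kb in SOM and 677 to 849 in EMM, with no overlap.

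**Figure D4:**
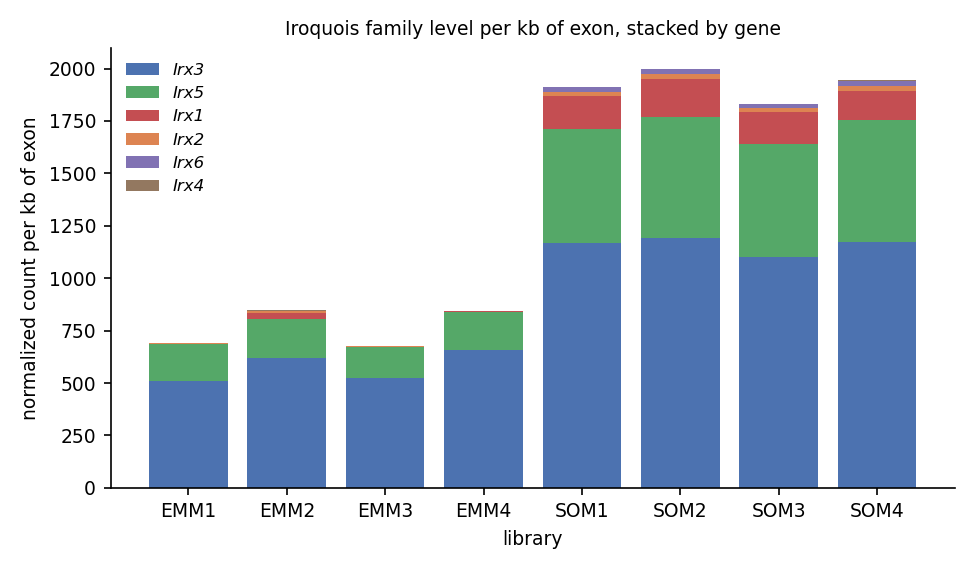
Stacked bars give the level of each Iroquois gene per library in normalized counts per kb of exon (union of annotated exons). Irx3 (blue) and Irx5 (green) make up most of every bar, the SOM bars reach 1831 to 1999 against 677 to 849 in EMM, and a visible Irx1 part (red) appears in SOM and, smaller, in EMM replicate 2.

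Irx3 and Irx5 did not differ between regions by the same factor. The difference between 2 members was taken in each library on the log2 scale and compared between regions by a two-sided exact permutation test of 4 against 4 libraries, whose smallest possible p is 0.0286, with Benjamini-Hochberg adjustment over 10 pairs. The difference between regions of Irx3 minus that of Irx5 was -0.70 (SE 0.09, exact p = 0.0286, adjusted p = 0.0408), and the ratio of Irx3 to Irx5 was 1.77 to 1.90 in SOM libraries against 2.50 to 3.21 in EMM. The adjusted p depends on all 10 pairs, and every pair but this 1 holds Irx1, Irx2 or Irx6. These genes passed the filter through SOM, which favours a large difference in them. Their pairs are thus given as a description, without p-values. Irx3 minus Irx6 was -4.51 (SE 0.39) and Irx5 minus Irx6 was -3.81 (SE 0.42), and with a pseudocount of 5 they were -2.72 and -2.03. Irx1 exceeded Irx3 by 3.91 (SE 0.83) and Irx5 by 3.21 (SE 0.87), and Irx2 exceeded Irx3 by 2.93 (SE 0.77). Irx2 minus Irx6 was -1.58 (SE 0.54), but -0.73 with a pseudocount of 5. In the other 3 pairs, Irx1 and Irx2 differed by 0.98 (SE 0.40), Irx1 and Irx6 by -0.60 (SE 0.65), and Irx2 and Irx5 by 2.23 (SE 0.76). These values do not show that the paired genes behave alike. With a pseudocount of 5, Irx1 exceeded Irx2 by 1.44 (SE 0.29), and Irx1 minus Irx6 changed sign to 0.71 (SE 0.64).

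On GRCm38, the assembly that mm10 names, Irx1 lies on chromosome 13 from 71957921 to 71963723, Irx2 from 72628820 to 72634198 and Irx4 from 73260479 to 73269608, over 1312 kb. Irx3 lies on chromosome 8 from 91798525 to 91802067, Irx5 from 92357625 to 92376286 and Irx6 from 92674288 to 92680956, over 882 kb. From 500 kb before to 500 kb after the clusters, 13 other genes were tested, with 5 called toward SOM, 4 toward EMM and 4 not called, shares near the 36.0% and 36.1% of all tested genes. Their median log2 difference was 0.06 beside 0.01 over all tested genes. On chromosome 13 there were 4 toward SOM and 2 toward EMM of 8, with a median of 0.29, and on chromosome 8 there were 1 and 2 of 5, with a median of -0.02. Crnde, a noncoding gene that starts 1.505 kb from the start of Irx5 and is read away from it on the opposite strand, is listed under its older symbol 4933436C20Rik. It stood at 423 ± 47.3 in SOM against 199 ± 20.6 in EMM, a log2 difference of 1.08 (SE 0.10, limma adjusted p = 7.66e-08), and was the 1 neighbour of the IrxB cluster called higher in SOM.

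Fto and Rpgrip1l were chosen after their values were seen. Fto, a demethylase gene whose introns hold known distant enhancers of Irx3, had means of 3978 ± 93.8 (EMM) and 4151 ± 254 (SOM), and the groups overlapped (limma log2 difference 0.06, SE 0.05, adjusted p = 0.297). Its neighbour Rpgrip1l, a cilium gene, had a difference of -0.02 (SE 0.08, limma adjusted p = 0.859). On the far side of Irx6, the gelatinase gene Mmp2 fell from 14010 ± 677 in EMM to 7407 ± 588 in SOM (-0.92), and Lpcat2 also had its higher level in EMM (-0.50). Beside Irx4, Ndufs6 and Mrpl36, which encode mitochondrial proteins, were higher in SOM by 0.36 and 0.29, Slc12a7 by 0.30 and Tert by 0.28, while Clptm1l was higher in EMM (-0.36), as was the low Slc6a3 at 28.3 ± 5.36 against 4.02 ± 2.97. The noncoding gene Gm20554, which lies 0.256 kb from Irx2, was at 4.87 ± 4.33 in EMM and 7.59 ± 2.94 in SOM and was below the filter.

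**Figure D5:**
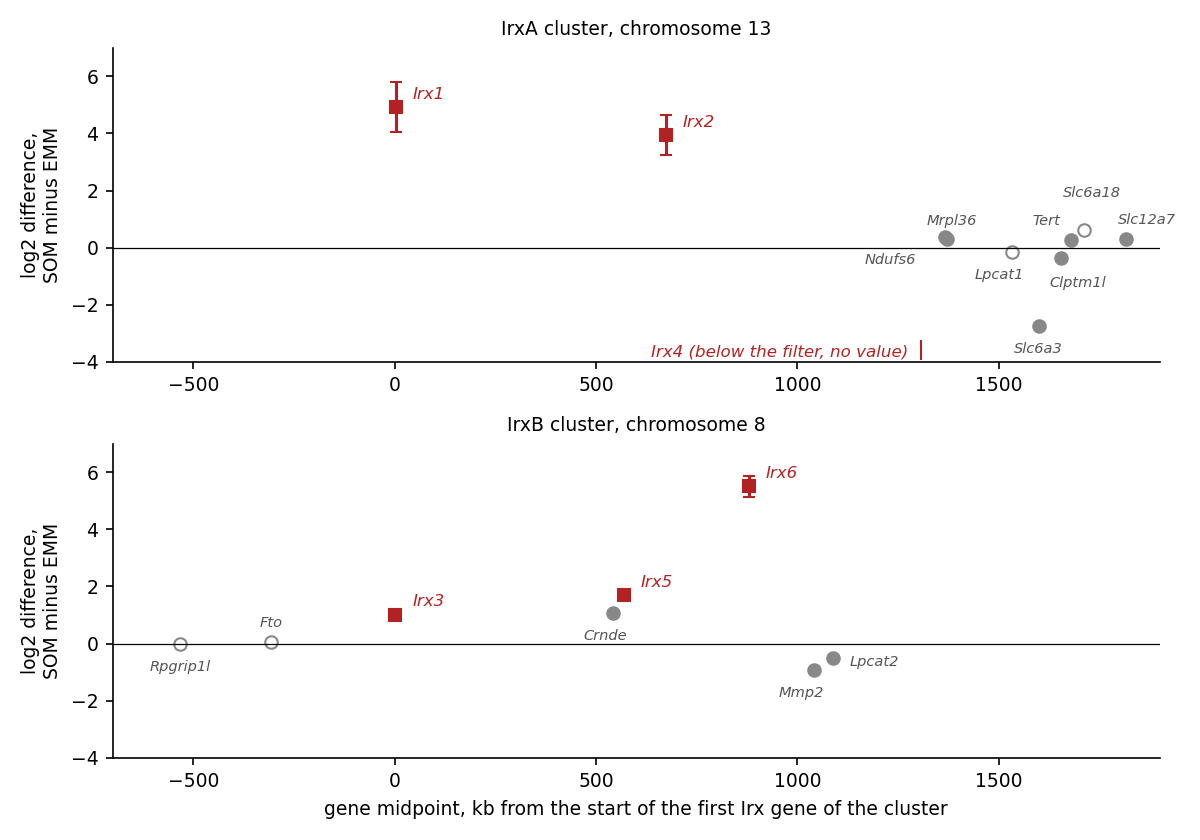
Each marker is a tested gene at its midpoint, in kb from the start of the first Iroquois gene of its cluster, with its log2 difference between SOM and EMM. Red squares are Iroquois genes (± SE), grey discs are neighbours with an adjusted p below 0.05, open circles those above it, and the neighbours lie between -2.73 and 1.08 while the tested Iroquois genes lie between 1.01 and 5.52.

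All 12 other TALE homeobox genes examined were tested, and 9 were called toward SOM and 3 toward EMM, beside 36.0% and 36.1% of all tested genes. Their median log2 difference was 0.43 beside 0.01 over all tested genes. Meis2, a cofactor of Hox and Pax proteins in the face, had 1609 ± 129 normalized counts in SOM beside 635 ± 89.9 for EMM, a log2 difference of 1.35, and Pbx4 had one of 1.05 at a low level. Meis1, another cofactor of Hox proteins, differed by 0.76. Mkx, a tendon regulator and a relative of the Iroquois genes, moved in the opposite direction, with 490 ± 36.5 for SOM beside 1746 ± 87.5 for EMM (-1.83), and the other 2 genes higher in EMM, named after their values were seen, were Pbx3 (1587 ± 99.8 against 1015 ± 84.4) and Pknox2 (1507 ± 52.1 against 1152 ± 85.7). The largest limma adjusted p among the 12 was that of Tgif1, 0.000275.

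Genes whose proteins are reported to bind Iroquois proteins were called in both directions. Gata3, a zinc finger factor that binds human IRX5 and is needed in the face, stood at 526 ± 72.8 in SOM against 27.4 ± 11.7 in EMM, a log2 difference of 4.30 (limma adjusted p = 1.64e-07). Trps1, the other reported partner in the face, was higher in EMM at 1075 ± 69.5 against 849 ± 144 with overlapping libraries (-0.35, limma adjusted p = 0.00896). Tbx5, a heart and limb factor, was higher in SOM at 24.5 ± 6.23 against 2.72 ± 3.16. The list held 6 genes, of which 5 were tested, with 2 called toward SOM and 1 toward EMM, beside 36.0% and 36.1% of all tested genes. Rxra (0.04) and Smyd1 (-0.05) were not called, and the heart gene Nkx2-5 was at 0 in all libraries. The median was 0.04.

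Genes reported to respond to Iroquois factors in other tissues, listed with the chemokine receptor genes Cxcr4 and Ackr3, were also called in both directions. The list held 9 genes, of which 7 were tested, with 3 called toward SOM and 3 toward EMM, shares near the 36.0% and 36.1% of all tested genes. The median of the list was -0.10. Cxcl12, Ackr3 and Kcnd2 were named after their values were seen. Cxcl12, a chemokine gene that Irx5 represses in frog neural crest, was the gene not called, at 7921 ± 185 in EMM beside 7408 ± 370 in SOM (limma adjusted p = 0.0736). Its receptor genes differed, with Cxcr4 higher in SOM at 217 ± 14.5 against 87.7 ± 32.4 and Ackr3, listed as Cxcr7, higher in EMM at 2315 ± 152 against 1411 ± 131. Gja1, a gap junction gene, was higher in EMM at 20942 ± 2888 against 5943 ± 767 (-1.82), the potassium channel gene Kcnd2 was higher in EMM (-0.69), and the chemokine gene Cxcl14 was higher in SOM at 5359 ± 591 against 1357 ± 434 (2.02). Gja5 was higher in SOM by 1.83 with overlapping libraries (limma adjusted p = 0.0423).

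Among 17 genes of signals that can regulate Iroquois genes, 15 were tested, with 11 called toward SOM and 3 toward EMM, beside 36.0% and 36.1% of all tested genes. Their median was 0.58, and Aldh1a2 (0.15) was not called. The retinoic acid degrading gene Cyp26b1 was at 1227 ± 105 in SOM against 167 ± 23.8 in EMM (2.88), the Hedgehog target gene Gli1 at 3059 ± 271 against 614 ± 118 (2.33), and the growth factor gene Fgf10 at 190 ± 18.9 against 38.6 ± 8.54 (2.29), and the retinoic acid making gene Aldh1a3 at 63.5 ± 10.7 against 14.9 ± 5.31 (2.08). Shh and the 3 genes higher in EMM were named after their values were seen. Shh itself had at most 1.34 normalized counts on average in either region. Bmp4 was the member with the largest difference toward EMM, at 2376 ± 88.8 against 1057 ± 116 (-1.17), before Axin2 (-0.26) and Rarb (-0.21).

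Genes with the most similar profile were sought by the root mean square distance between log2 profiles over the 8 libraries, each centred on its mean, among 14248 other tested genes. For Irx3 these were Gstm1, Twist2 and Syce2, at distances of 0.07, 0.08 and 0.08. For Irx5 they were Egfl6, Pdxp and Sh2b2, at 0.09, 0.09 and 0.11. For Irx1 the second nearest gene was Irx2, at 0.70, after Lrrtm3 at 0.47 and before the homeobox gene Hmx1 at 0.81. For Irx2 the nearest were Gm9899, Btnl9 and Fxyd7, at 0.56 to 0.61, with Irx1 at rank 9. For Irx6 they were Sp9, Igfbp5 and Lrrtm3, at 0.44, 0.48 and 0.52. Irx3 was at rank 301 for Irx5 and Irx5 at rank 2944 for Irx3, with a distance of 0.37. Such distances rank genes largely by the size of their difference between regions, and they do not show shared regulation. Irx1, Irx2 and Irx6 passed the filter through SOM. Of the genes nearest to them, Lrrtm3 (1.95), Gm9899 (0.452), Btnl9 (1.42) and Fxyd7 (2.73) had very low EMM means. Those of Hmx1 (10.2), Sp9 (8.19) and Igfbp5 (392) were higher.

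In the authors' deposited table, the log2 fold changes, where negative values mean higher in SOM, were -2.17 (SE 0.494) for Irx1, -1.93 (SE 0.489) for Irx2, -0.9995 (SE 0.0774) for Irx3, -1.70 (SE 0.0787) for Irx5 and -4.48 (SE 0.413) for Irx6. The adjusted p-values in the authors' deposited table were at most 0.000207 for these 5 genes and 0.733 for Irx4, whose fold change was -0.23 (SE 0.495). For Irx1, Irx2 and Irx6 these sizes were below the limma differences of 4.92, 3.94 and 5.52, and no standard error in the authors' deposited table exceeded 0.498. The cause was not tested.

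The Iroquois binding motif ACANNTGT, a palindrome that reads the same on both strands, was searched in RefSeq promoters (250 bases before to 50 after a gene start, GRCm38.p6). It was in 0 of the 3 Iroquois promoter windows matched, those of Irx2, Irx3 and Irx4. In the list of responding and receptor genes it was in 0 of the 8 matched promoters, beside 7.38% of 32851 promoters. With so few windows and that share, 0 is the likeliest count in either set, so it does not show that the motif is rarer there.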

How the data were processed

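RNA-seq libraries of 4 EMM and 4 SOM pools were analysed. Per the submitters' processing notes, bcl2fastq, STAR and DESeq2 were used, without versions, on mm10. The counter, the annotation and any use of strand were not given in the sources used here. Per the file headers, the deposited table holds a signal for each gene and library (reads over a size factor). It also holds the authors' log2 fold change and Wald score, the standard error, and their p-value with its adjusted form. In every library, 100% of values were whole multiples (within 1 ppm) of 1 step, and reads were recovered by dividing by it.

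Genes with at least 10 normalized counts in at least 4 libraries (14249) were taken as log2(value + 1) and tested in limma 3.58.1 (R 4.3.3, trend, robust). The added 1 makes changes of low values smaller, but the mean of logs gives a single high library less weight than a mean of counts does. With libraries left out, the smaller group's size replaced 4. Alternatives on recovered reads were edgeR 4.0.16 (TMM) and DESeq2 1.42.0. For Irx1 they gave log2 differences of 4.42 and 4.12, and for Irx2 3.67 and 3.43, all below limma (4.92 and 3.94). For Irx6 they gave 6.59 and 6.81, above limma (5.52). The fits were tested on simulated data. Libraries of a group differed by 3.72 to 19.1 chi-square per degree of freedom, more than sampling noise. Members, lists and tests were chosen with earlier results of these data known. Named genes were all members, neighbours within 500 kb of a cluster with an adjusted p below 0.05 and a mean of at least 100, noncoding genes beside a member, the 3 genes nearest in profile, and up to 4 genes per list. The floor of 3 reads came to 1.91 to 5.42 normalized counts per library.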

Additional observations from a re-analysis of the deposited data

Results flagged for a closer look

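In 3 of the 12 combinations of an Iroquois gene and a region, 1 library stood apart from the other 3 by more than Dixon's 95% critical value for the gap over the range. Chance gives about 1 in 20 for independent groups of normally distributed values. These groups include low counts, and 2 of the 3 flags came from the same library, so the 3 of 12 cannot be set against that rate. Irx1 in EMM stood at 74.1 in replicate 2, with a gap of 0.892 of the range. Irx2 in EMM stood at 23.5 in the same library, with a gap of 0.966. Irx5 in EMM stood at 453 in replicate 3, below the other 3 libraries, with a gap of 0.850.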

How the results depend on the processing

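Irx1, Irx2, Irx3, Irx5 and Irx6 kept their direction and their side of the threshold in each of 16 alternatives: a pseudocount of 5, no filter, a filter at 50, upper quartile scaling, edgeR, DESeq2, the replicate block, each library left out in turn, and EMM replicates 2 and 3 left out. Their log2 differences ranged from 4.12 to 5.89 for Irx1, 3.00 to 4.79 for Irx2, 0.95 to 1.07 for Irx3, 1.63 to 1.74 for Irx5 and 3.73 to 6.81 for Irx6. The highest adjusted p was 0.00857, for Irx1 with the replicate block. The labels do not say whether replicate numbers pair the pools, and the numbers were not used as pairs: the deviations of same-numbered libraries had correlations of 0.126, 0.00993, 0.0419 and -0.0199. With the replicate block in limma, Irx1 had a log2 difference of 4.92 and Irx3 of 1.01, and no Iroquois call changed. For Irx4, which was below the filter, the difference went from -0.04 to 1.28 with a library left out in turn and was 2.03 without EMM replicates 2 and 3. Between members, all but 1 of 120 alternative pair values kept their direction, the exception being Irx1 and Irx6 with a pseudocount of 5 (0.71). With 3 against 4 libraries the smallest exact p is 0.0571, so that pair tests cannot pass there. The order of SOM levels per kb was the same with the longest transcript as length. Depth limits Irx4 in both regions and Irx1, Irx2 and Irx6 in EMM, where 60, 18 and 2 reads were counted.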
